A study of Mus musculus with 24 samples.

Results

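The phospholipase C beta family consists of 4 genes, Plcb1, Plcb2, Plcb3 and Plcb4, taken by symbol from a table of 55487 genes. All 4 had counts and all 4 were among the 14535 genes tested. The family was chosen by measured values of these libraries: the CPM of Plcb4 differed between KO and WT on each of the 4 days. Its KO and WT levels are therefore given as a description, with no test. The other 3 genes were not used in that choice and were tested. Changes of Plcb4 over days are made of the same values that chose it. Their adjusted p-values are given as a description.

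RNA was measured in dendritic cells grown from mouse bone marrow with the growth factor GM-CSF, collected daily from day 7 to day 10. The WT mice carried floxed Arpc4 on both alleles and no CD11c-Cre. The KO mice carried the same alleles and CD11c-Cre, so that deletion of Arpc4, a subunit of the actin-branching Arp2/3 complex, is limited to cells that turn on the CD11c promoter. Each of the 8 groups held 3 mice aged 8 to 10 weeks of both sexes, for 24 libraries in all. The labels give 6 mouse numbers, 3 per genotype, which recur on each day, so the 12 libraries of a genotype are not 12 animals. All cultures received GM-CSF at 50 ng/mL and were replated on day 4 and day 7, and only cells in suspension were kept, above 90% of them CD11c-positive by the submitters' own flow cytometry. Library kits of 2 kinds are named without saying which library each made.

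Enzymes of this family cut the membrane lipid PIP2 into IP3, which releases calcium from the endoplasmic reticulum, and diacylglycerol, which recruits protein kinase C and RasGRP proteins. They are switched on by heptahelical receptors, through alpha subunits of the Gq class and, for some members, through G beta-gamma dimers freed from Gi. In leukocytes the pathway is best known downstream of chemoattractant receptors. Plcb2 is the member typical of blood cells and responds to G beta-gamma. Plcb3 is widely expressed and responds to both inputs. Plcb1 is abundant in brain. Plcb4 is best known from cerebellum and retina and is not activated by G beta-gamma.

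Libraries held 19952047 to 31049798 counts. On day 7 the 10 most counted genes held 20.9% to 21.3% of each WT library and 17.2% to 20.2% of each KO library. On days 8 to 10 they held 13.5% to 15.1% in WT and 9.31% to 14.8% in KO. Arpc4 itself was at 155 to 231 CPM (counts relative to the scaled library total) in the libraries labelled KO and at 188 to 270 CPM in WT. On each day the 3 KO libraries lay below the 3 WT libraries, with log2 fold changes of -0.19, -0.19, -0.18 and -0.28 on days 7, 8, 9 and 10, none past an adjusted p of 0.05 (edgeR's quasi-likelihood test, 0.177 to 0.69). DESeq2's Wald test called Arpc4 on day 10 (-0.28, adjusted p = 0.0255). These counts cover the whole gene, so they do not separate a deleted from an intact allele. Of 16 markers of conventional dendritic cells, Itgax (CD11c) among them, 13 were above 1 CPM in every library. Markers of other cells were also present: summed levels were 3230 to 6220 CPM for 12 macrophage genes and 3250 to 7440 CPM for 12 neutrophil genes, against 4170 to 9460 CPM for the dendritic cell list, whereas 6 B cell genes came to 1.25 to 7.26 CPM. The mouse numbers in the KO labels did not follow 1 animal over time. The single library per KO group with Ddx3y, a Y-linked gene, above 10 CPM was mouse 64, then 68, then 64, then 67 over the 4 days, while in WT it was mouse 63 throughout. Leaving out a KO number therefore removes the libraries of 1 label, which need not be 1 animal.

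Plcb4 (ENSMUSG00000039943.16) lies on chromosome 2, chr2:135659011-136014593 on the forward strand of GRCm38 in GENCODE M21, a protein-coding gene of 355.6 kb with 15 annotated transcripts, 4 of them coding. Plcb1 (ENSMUSG00000051177.16, chr2:134786067-135475258, forward strand) ends 183.8 kb before it. Plcb2 (ENSMUSG00000040061.17, chr2:118707517-118728438, reverse strand) is elsewhere on the same chromosome, and Plcb3 (ENSMUSG00000024960.9, chr19:6952325-6976470, reverse strand) is on chromosome 19. The proteins encoded by the longest annotated coding transcripts have 1216, 1181, 1234 and 1175 residues for Plcb1 to Plcb4. Plcb4 is the most distant member, identical to the others at 36.5% (Plcb2), 39.3% (Plcb3) and 41.8% (Plcb1) of aligned residues, while Plcb1 and Plcb3 share 57.1%. The longest run of bases shared between transcripts of any pair was 34, for Plcb1 and Plcb4, shorter than the reads of 100 bases.

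The windows of 250 bases before the start sites are shown for Plcb4, the member that differed between genotypes, and for Plcb2, the most abundant member. RefSeq (GRCm38.p6) gives Plcb4 a pair of starts. The window before the first is chr2:135659297-135659546 and overlaps the first exon of a noncoding Plcb4 transcript in GENCODE. The window before the second is chr2:135764588-135764837, within the gene. The Plcb2 window is chr2:118728439-118728688 on the reverse strand. Capitals mark GGGCGG (the GC box, bound by Sp factors) in the Plcb4 windows and AGGAAG (a form of the core bound by ETS factors such as PU.1) in the Plcb2 window; both were searched on both strands.
Plcb4, first start: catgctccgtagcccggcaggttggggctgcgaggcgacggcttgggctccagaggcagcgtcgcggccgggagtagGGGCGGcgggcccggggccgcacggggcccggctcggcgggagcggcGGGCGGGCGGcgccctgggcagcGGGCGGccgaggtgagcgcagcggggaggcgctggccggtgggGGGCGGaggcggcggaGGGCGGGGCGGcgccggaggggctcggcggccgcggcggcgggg
Plcb4, second start: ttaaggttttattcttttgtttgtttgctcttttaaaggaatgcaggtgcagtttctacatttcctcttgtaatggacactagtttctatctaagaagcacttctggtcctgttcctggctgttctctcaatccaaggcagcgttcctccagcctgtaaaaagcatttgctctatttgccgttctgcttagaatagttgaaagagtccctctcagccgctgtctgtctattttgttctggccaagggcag
Plcb2: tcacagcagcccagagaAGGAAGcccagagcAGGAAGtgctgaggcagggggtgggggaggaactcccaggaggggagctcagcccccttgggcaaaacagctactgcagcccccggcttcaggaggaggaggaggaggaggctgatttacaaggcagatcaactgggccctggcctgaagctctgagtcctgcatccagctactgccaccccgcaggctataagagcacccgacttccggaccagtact
The first Plcb4 window was 85.2% G and C and held 42 CG dinucleotides, at percentile 99.1 of 32851 mouse windows, whose median was 6. It held 7 GGGCGG motifs, counting overlaps, and this motif occurred at least once in 32.7% of windows. The family's other windows, not shown, held 5 GGGCGG and 20 CG dinucleotides (Plcb3) and 1 and 22 (Plcb1). The second Plcb4 window held 3 CG dinucleotides, was 42.8% G and C, and had no match to GGGCGG. The Plcb2 window held 4 CG dinucleotides and 2 matches to AGGAAG, found in 29.5% of windows. The motifs were picked after the sequences were seen. Counts per gene do not tell which Plcb4 start was used in either genotype, and a match is a description of letters, not of binding.

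Levels of the 4 genes were compared with each other in TPM, which is scaled by transcript length. Plcb2 dominated the family in every library. It made up 86.1% ± 1.72 (SD, n = 12) of the summed TPM in WT and 84.8% ± 2.38 (SD, n = 12) in KO, followed by Plcb3 with 13.4% ± 1.69 in WT and 13.4% ± 2.15 in KO. Plcb1 and Plcb4 were minor in both genotypes. Plcb4 contributed 0.115% ± 0.0425 in WT and 1.46% ± 0.271 in KO, and Plcb1 contributed 0.362% ± 0.190 and 0.308% ± 0.158. The order was Plcb2, Plcb3, Plcb1, Plcb4 in 12 of 12 WT libraries. In 12 of 12 KO libraries Plcb4 stood above Plcb1. The ratio of Plcb4 to Plcb1 ran from 0.15 to 0.824 in WT and from 2.28 to 9.21 in KO. The sum over the family ran from 148 to 248 TPM in WT and from 138 to 265 TPM in KO, so the genotypes overlapped in the total.

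**Figure D1:**
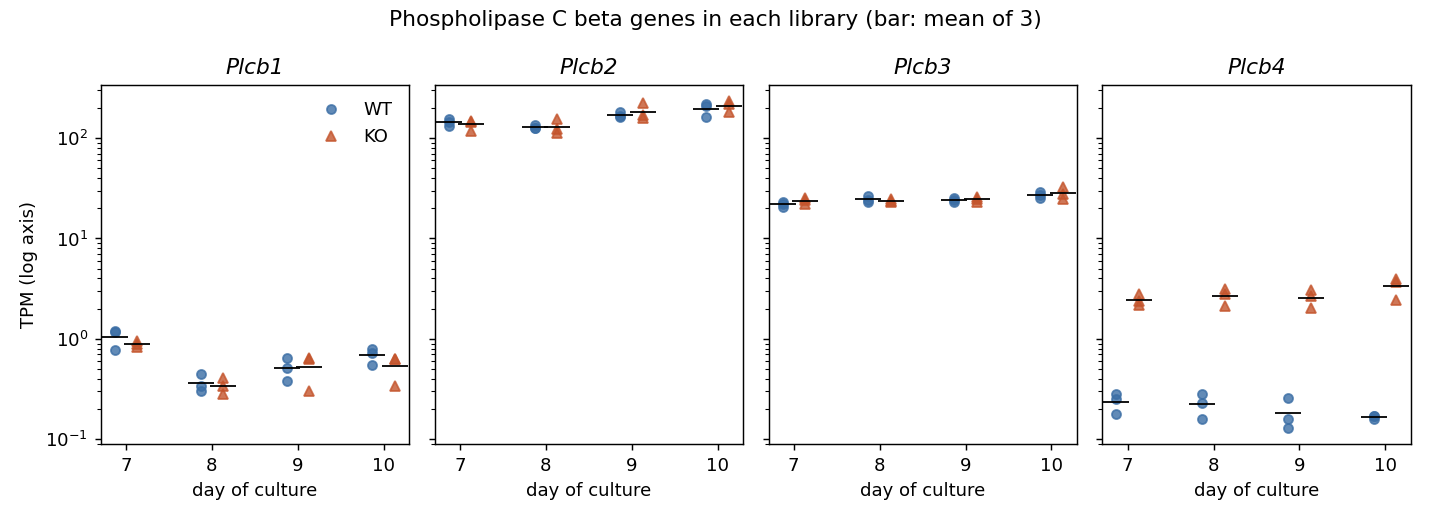
TPM (log axis) of Plcb1, Plcb2, Plcb3 and Plcb4 in each of the 24 libraries by day of culture, with WT as circles, KO as triangles and a bar at the mean of 3. Plcb4 lies at 0.13 to 0.28 TPM in WT and 2.02 to 3.95 TPM in KO, while the genotypes overlap for the other genes on every day.

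Plcb2, the member typical of blood cells, was at 131.9, 154.0 and 144.8 TPM in the WT libraries of day 7 and at 145.3, 148.8 and 116.8 TPM in the KO libraries. On day 8 it was at 134.1, 124.9 and 125.8 TPM in WT and 121.9, 153.4 and 111.6 TPM in KO. Day 9 gave 182.1, 160.3 and 165.6 TPM in WT and 156.9, 222.1 and 169 TPM in KO. The genotypes overlapped on all these days. On day 10 the values were 217.7, 209.8 and 162.0 TPM in WT and 232.5, 180.2 and 217.1 TPM in KO, again overlapping. KO against WT gave log2 fold changes of -0.13 ± 0.10 (SE), -0.06 ± 0.10, 0.03 ± 0.10 and 0.01 ± 0.10 on days 7, 8, 9 and 10, none past the threshold (edgeR, adjusted p 0.578 to 0.991). The 95% intervals for these folds reached no further than 0.789 to 1.19, from the lowest bound on day 7 to the highest on day 9.

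Plcb3, which answers both Gq-class subunits and G beta-gamma, had the narrowest spread of the family relative to its mean, with an SD of 10.1% of the mean TPM over 24 libraries against 22% to 92.6% for the others. In WT it was at 20.8, 22.2 and 22.98 TPM on day 7 and at 29.3, 27.0 and 25.2 TPM on day 10. In KO it was at 25.1, 24.1 and 21.98 TPM on day 7 and at 27.6, 24.8 and 32.3 TPM on day 10. On days 8 and 9 all 12 libraries lay between 22.9 and 26.2 TPM. KO and WT overlapped on each day. Log2 fold changes of KO against WT were 0.05, -0.10, -0.03 and -0.03, each with an SE of 0.08, and none passed (edgeR, adjusted p 0.807 to 0.977).

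Plcb1 was low in all libraries, with 24 to 124 counts. It was at 1.18, 0.77 and 1.20 TPM in WT and 0.89, 0.83 and 0.95 TPM in KO on day 7. On day 8 every library was lower, at 0.45, 0.30 and 0.34 TPM in WT and 0.34, 0.41 and 0.28 TPM in KO. Day 9 gave 0.38, 0.51 and 0.64 TPM in WT and 0.30, 0.63 and 0.64 TPM in KO. The day 10 values were 0.80, 0.55 and 0.72 TPM in WT and 0.63, 0.34 and 0.63 TPM in KO. The genotypes overlapped on all 4 days. KO against WT gave log2 fold changes of -0.30 ± 0.25, -0.16 ± 0.29, -0.05 ± 0.27 and -0.46 ± 0.26 (SE), none past the threshold (edgeR, adjusted p 0.608 to 0.993). The interval on day 10 reached from 0.496-fold to 1.06-fold, so a moderate difference in this low gene could not be told from none at this depth.

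Plcb4 was very low in WT and several times higher in KO. In WT the day 7 libraries held 24, 18 and 14 counts (0.28, 0.25 and 0.18 TPM), and in KO they held 196, 201 and 171 counts (2.39, 2.78 and 2.17 TPM). On day 8 the counts were 19, 12 and 20 in WT (0.23, 0.16 and 0.28 TPM) and 236, 217 and 150 in KO (3.13, 2.81 and 2.14 TPM). Day 9 gave 9, 8 and 16 counts in WT (0.16, 0.13 and 0.26 TPM) and 168, 226 and 245 in KO (2.02, 2.66 and 3.05 TPM). No KO library came near a WT library on these days: the lowest KO value was 7.61, 7.95 and 7.91 times the highest WT value in CPM. On day 10 WT held 12, 12 and 14 counts (0.16, 0.17 and 0.17 TPM) and KO held 324, 212 and 322 (3.95, 2.46 and 3.66 TPM), and the lowest KO value was 14.2 times the highest WT value.

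The ratio of mean CPM, KO over WT, was 9.88, 11.6, 13.4 and 18.8 from day 7 to day 10. In total Plcb4 had 178 counts in the 12 WT libraries and 2668 in the 12 KO libraries. The fitted log2 fold changes were 3.29 ± 0.23 (SE), 3.53 ± 0.23, 3.72 ± 0.24 and 4.22 ± 0.24. On the log2(TPM + 1) scale the differences were 1.48, 1.59, 1.59 and 1.88, because the added 1 exceeds the WT level. The contrast that chose the gene is the same one, so no test is given. Over all genes tested, 1.45% were called for KO against WT on day 7, and 0.00688%, 0.00688% and 0.0138% on days 8, 9 and 10. These shares include Plcb4 itself, which was the 1 gene on days 8 and 9 and 1 of the 2 on day 10. The day 7 share moved with single numbers: its 211 calls became 40, 21 and 11 without WT mice 63, 65 and 66, 99 and 137 without the KO libraries numbered 67 and 68, and 351 without those numbered 64. The later counts of 1, 1 and 2 reached 30 on day 8 without those numbered 68 and 82 on day 10 without those numbered 67. Of Plcb1, Plcb2 and Plcb3, 0 were called on any day. In bulk RNA, a change in the share of cells that hold a transcript and a change in the amount per cell cannot be told apart.

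**Figure D2:**
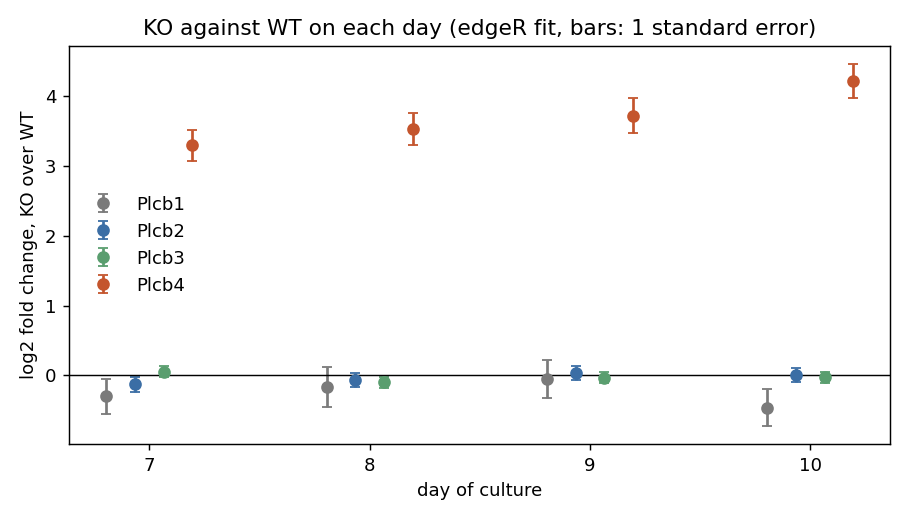
Log2 fold change of KO over WT (vertical axis) on each day (horizontal axis) for the 4 genes from the edgeR fit, with bars of 1 standard error. Plcb4 stands at 3.29 to 4.22, and the other genes lie between -0.46 and 0.05.

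Lists of markers of 10 other cell types were set beside these values. Of the 10 lists, the summed CPM of WT and KO libraries was apart on a single day for 3. Mast cell and basophil genes were apart on day 9 (124 to 151 CPM in WT, 179 to 235 CPM in KO). So were plasmacytoid dendritic cell genes on day 9 (122 to 134 and 145 to 157 CPM). Stromal and endothelial genes were apart on day 8 (175 to 205 and 153 to 173 CPM). The share of all genes apart in this way is not given, so these 3 lists are a description. Gene by gene, 7, 7, 6 and 3 of 7 monocyte genes had a log2 fold change of KO over WT above 0 on days 7, 8, 9 and 10, with medians of 0.75, 0.18, 0.18 and -0.27. For mast cell and basophil genes these were 8, 8, 9 and 5 of 9, with medians of 0.75, 0.40, 0.59 and 0.10. Stromal and endothelial genes had 2, 1, 1 and 1 of 8 above 0, with medians of -0.78, -0.83, -0.46 and -0.51. Neutrophil genes went from 9, 9 and 7 of 12 above 0 to 1 of 12 on day 10, with medians of 0.40, 0.12, 0.013 and -0.32, and eosinophil genes from 6 of 6 on day 7 to 3, 2 and 2, with medians of 0.47, 0.0078, -0.094 and -0.21. Macrophage genes had 10, 5, 8 and 7 of 12 above 0, with medians from -0.056 to 0.24, and erythroid and megakaryocyte genes 4, 3, 4 and 3 of 5, from 0.019 to 0.40. Of the remaining lists, T and NK cell genes had 3, 4, 3 and 3 of 5 above 0 (medians 1.15, 0.23, 0.19 and 0.20). Their level was very low: on day 7 the 9 listed genes summed to 2.29 to 3.72 CPM in WT and 2.35 to 4.37 CPM in KO, overlapping. Single T and NK genes ran from -0.78 to 4.04 that day. B cell genes had 1, 0, 1 and 3 of 5 (medians -0.38 to 0.12) and plasmacytoid genes 1, 2, 2 and 2 of 3 (-0.053 to 0.074). On day 7, 1 of 12 macrophage and 1 of 7 monocyte genes passed as higher and 1 of 3 plasmacytoid genes as lower (edgeR). On the later days 0 genes of the 10 lists passed. Over all genes, Plcb4 included, 1.45% passed on day 7, and 1, 1 and 2 of 14535 on days 8, 9 and 10. The marker counts were not tested against these shares. The 15 conventional dendritic cell genes tested had 11, 11, 12 and 10 above 0, with medians of 0.37, 0.29, 0.30 and 0.16, and 0 passed. No marker was at 0 in every library. The part of these cells, dendritic cells included, in the Plcb4 values was not tested.

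Changes over days in culture are given member by member, and the members were not tested against each other. Between day 7 and day 10, 37% of all genes tested passed the threshold in WT and 36.8% in KO (edgeR, adjusted p under 0.05). Here and below, these shares moved with single numbers. The 5376 calls in WT became 3255 without mouse 66, and the 5353 in KO became 3201 without the KO libraries numbered 64. Without those numbered 67 they were 5916 and 5805. Plcb1 fell in both genotypes, by 0.90 ± 0.26 (SE) on the log2 scale in WT (adjusted p = 0.00957) and by 1.06 ± 0.26 in KO (adjusted p = 0.00344). Plcb2 rose in KO by 0.31 ± 0.10 (adjusted p = 0.0235) and was at 0.17 ± 0.10 in WT (adjusted p = 0.216). Plcb3 gave 0.02 ± 0.08 in WT and -0.06 ± 0.08 in KO (adjusted p = 0.87 and 0.606). Plcb4 fell in WT by 0.79 ± 0.28 (edgeR, adjusted p = 0.0335), a call that rests on 56 counts on day 7 and 38 on day 10 and was lost in 9 of 17 alternatives. In KO Plcb4 was at 0.14 ± 0.19 (adjusted p = 0.597). The values of Plcb4 chose the family, so its adjusted p-values over days are a description. The count of members called was 2 of 4 in each genotype, in WT with Plcb4 among them.

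Several of these calls were lost without the libraries of 1 mouse number or under another setting. Without WT mouse 63 on all days, Plcb4 in WT was at -0.56 (edgeR, adjusted p = 0.296), and without mouse 65 at -0.76 (0.116). With limma voom in place of edgeR it was at -0.75, whether without a block (adjusted p = 0.163) or with the mouse number as a random block (0.162), and with the number as a fixed block in edgeR at -0.79 (0.0493). Plcb1 in WT was at -0.88 without mouse 63 (edgeR, adjusted p = 0.0564) and at -0.85 without mouse 66 (0.081). Plcb2 in KO was at 0.33 without the KO libraries numbered 64 (0.0755) and at 0.21 without those numbered 68 (0.236). Its value ran from 0.21 to 0.61 over the 17 alternatives. On the log2(TPM + 1) scale the median of all genes moved by 0.21 in WT and 0.25 in KO from day 7 to day 10, so changes in TPM read against that shift. There Plcb3 passed in both genotypes, at 0.29 and 0.23 (limma, adjusted p = 0.00975 and 0.0296), close to the shift of all genes.

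The largest step of the family was the fall of Plcb1 from day 7 to day 8, the day after replating. It fell by 1.75 ± 0.27 in WT (edgeR, adjusted p = 2.98e-05) and by 1.61 ± 0.27 in KO (8.89e-05) on the log2 scale. Its day 7 and day 8 libraries did not overlap in either genotype. The share of all genes apart in this way is not given, so that separation is a description. On the log2(TPM + 1) scale, which understates changes of so low a gene, the falls were smaller, at -0.58 and -0.49 (limma), and those from day 7 to day 10 were -0.27 and -0.31, and all 4 passed. This was the step with the most calls over all genes, 43.4% in WT and 42% in KO. Plcb2 fell at the same step, by 0.39 ± 0.10 in WT (0.00427) and by 0.32 ± 0.10 in KO (0.0161), and Plcb3 fell in KO by 0.23 ± 0.08 (0.0282). Plcb3 in WT was at -0.07 ± 0.08 (0.478). The Plcb2 call was lost in WT without mouse 65 (-0.31, edgeR, adjusted p = 0.0896) and in KO without libraries numbered 64 (-0.23, 0.178), and the Plcb3 call without those numbered 64 (-0.20, 0.113) or 67 (-0.16, 0.197) or without WT mouse 65 (-0.21, 0.0598) or 66 (-0.21, 0.0661). Plcb4 was at -0.33 ± 0.27 in WT and -0.09 ± 0.19 in KO (0.348 and 0.726).

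Later steps were smaller. From day 8 to day 9 Plcb2 rose by 0.35 ± 0.10 in WT (edgeR, adjusted p = 0.0491) and by 0.44 ± 0.10 in KO (0.03), where 5.4% and 2.33% of all genes were called. The WT call was lost in 11 of 17 alternatives, at 0.0532 with limma voom in place of edgeR (0.0521 with the mouse as a random block there) and at 0.22 to 0.265 without any 1 of WT mice 63, 65 and 66 (edgeR, log2 fold changes 0.34 to 0.37). The KO call was lost in 7 of 17, at 0.0718 without the KO libraries numbered 64, 0.153 without those numbered 68 and up to 0.307 with only the groups compared (edgeR). Plcb1, Plcb3 and Plcb4 did not pass at this step. The counts over all genes behind these shares were unstable: 785 in WT fell to 42, 38 and 17 without mice 63, 65 and 66 and reached 1653 without the KO libraries numbered 67, and 338 in KO fell to 20 without those numbered 68 and to 0 with only the groups compared. From day 9 to day 10 none of the 4 members passed in either genotype, with 3.6% of all genes called in WT and 0.0963% in KO. These shares do not set the genotypes apart: 523 calls in WT became 0 without mouse 63 and 29 without mouse 65, and 14 in KO became 2090 without the libraries numbered 67. Plcb4 in KO was then at 0.35 ± 0.19 (edgeR, adjusted p = 0.464) and Plcb1 in WT at 0.42 ± 0.27 (0.447).

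**Figure D3:**
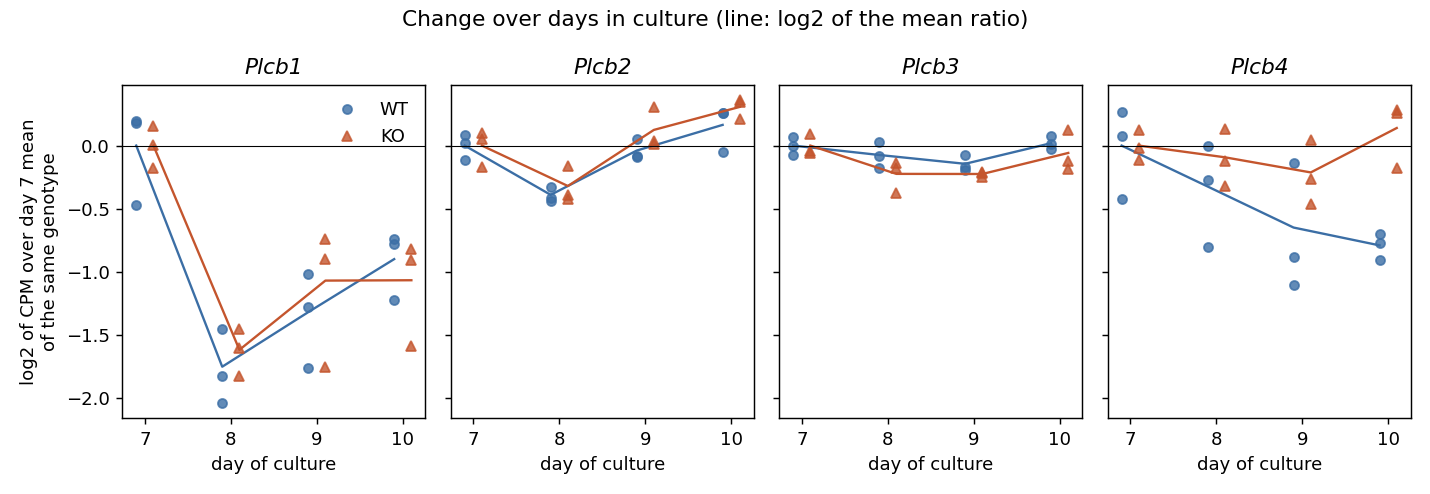
Log2 of CPM relative to the day 7 mean of the same genotype (vertical axis) by day of culture for the 4 genes, with WT as circles, KO as triangles and a line through the log2 ratio of the means of 3. Plcb1 drops on day 8 in both genotypes, Plcb2 dips and recovers, Plcb3 stays within a narrow band, and the fitted change of Plcb4 from day 7 to day 10 was -0.79 in WT and 0.14 in KO, with no test given of the difference between genotypes.

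The change over the 4 days was also compared between genotypes. For Plcb4 the change in KO less that in WT was 0.93 on the log2 scale, which is the day 10 less the day 7 difference between genotypes; those differences chose the family, so no test is given. For Plcb1, Plcb2 and Plcb3 the direct test gave -0.16 ± 0.36 (SE), 0.14 ± 0.14 and -0.08 ± 0.11 (edgeR, adjusted p 0.936 to 0.982, unadjusted p 0.341 to 0.661). Over all genes 0.0619% were called in this comparison, and 0 of these 3 genes were, with edgeR or with DESeq2's Wald test.

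The neighbourhood of Plcb4 was examined because Plcb1 adjoins it. Within 1 Mb on either side, 24 other genes are annotated, and 15 of them had no count in any library. The 3 that were tested, Plcb1, Mkks and Slx4ip, were not called for KO against WT on any day. Over all genes, Plcb4 included, 1.45% were called on day 7, and 1, 1 and 2 of 14535 on days 8, 9 and 10. At such shares, 0 calls among 3 genes say nothing particular about this window. Slx4ip, a gene of telomere maintenance, averaged 14.3 CPM in WT and 14.4 CPM in KO, and Mkks, a chaperonin-like gene of the cilium base, 4.65 and 4.80 CPM. Lamp5, 37.6 kb beyond the end of Plcb4, had 3 counts in all 24 libraries together. The 3 annotated noncoding genes that overlap Plcb4 had 0, 0 and 1 count. How reads shared with Plcb4 were assigned is not given in the sources used here. The family was chosen for the level of Plcb4, so its contrast with these 3 neighbours is given as a description.

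**Figure D4:**
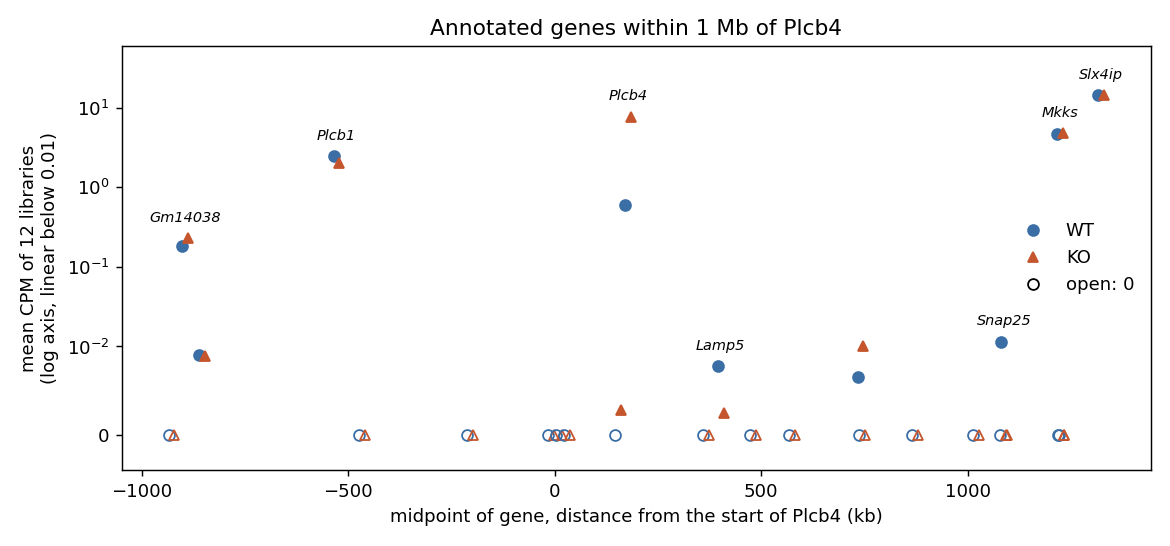
Mean CPM over 12 libraries per genotype (vertical axis, log scale with a linear part below 0.01) of genes annotated within 1 Mb of Plcb4, by the distance of their midpoint from the start of Plcb4 in kb (horizontal axis); WT are circles, KO triangles, open symbols 0. The genotypes differ at Plcb4 and lie together at Plcb1, Mkks and Slx4ip.

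The genes around the enzymes were followed with 8 lists of 170 genes, 145 of them tested. For KO against WT, 1 of 145 passed on day 7, where 1.45% of all genes did. On days 8, 9 and 10, 0 of the 145 passed, where 1, 1 and 2 of 14535 did, Plcb4 included. The median log2 fold change was 0.02, 0.03, 0.03 and 0.03, against medians of -0.01, 0.00, 0.00 and 0.00 over all genes. The gene that passed was Itpr2, an IP3 receptor of the endoplasmic reticulum, at 45.6 to 53 CPM in WT and 64.8 to 66.9 CPM in KO on day 7. It rose by 0.40 ± 0.10 on the log2 scale (edgeR, adjusted p = 0.0419), and was at 0.20, 0.33 and 0.09 on the later days (0.845, 0.249 and 0.901). Without 1 of the WT mice 63, 65 or 66 or the KO libraries numbered 67 the day 7 call was lost, at 0.46, 0.42, 0.35 and 0.42, as it was with limma voom (0.40, adjusted p = 0.0502, and 0.0501 with the mouse as a random block) and on log2(TPM + 1) (limma, 0.42, 0.0915). DESeq2's Wald test called 7, 0, 1 and 0 genes of these lists on the 4 days, among 523, 17, 98 and 43 of all 14535 genes. From day 7 to day 10, 76 of 145 passed in WT (52.4%, 33 higher and 43 lower, against 37% of all genes, 2746 higher and 2630 lower) and 72 in KO (49.7%, 33 and 39, against 36.8% of all genes, 2870 and 2483). Of these, 61 passed in both genotypes (42.1%, against 27.1% of all genes), 61 in the same direction, as 3935 of 3939 genes did over the whole table. Without the KO libraries numbered 64, 43 genes of these lists and 3201 of all genes passed in KO. In WT, 53 and 3255 passed without mouse 66. None of this was tested against other genes, and 0 of the 145 differed between genotypes by the interaction test.

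Of 34 receptors tested upstream of the family, 5 were higher and 13 lower on day 10 than on day 7 in WT and 5 and 12 in KO, where 37% and 36.8% of all genes passed. F2rl2, a protease-activated receptor cleaved by thrombin, rose by 3.06 in WT and 2.89 in KO on the log2 scale, and S1pr3, a receptor for sphingosine-1-phosphate that couples to Gq, by 2.30 and 2.87. The fractalkine receptor Cx3cr1 fell by 2.24 and 3.23, and S1pr1 by 1.63 and 1.28. Without the KO libraries numbered 64, S1pr1 in KO was at -0.87 (edgeR, adjusted p = 0.0791).

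Among alpha subunits of the Gq class, Gna15, the blood-cell member, rose from 45.8 to 48.3 CPM on day 7 to 85 to 103 CPM on day 10 in WT and from 45.2 to 48.5 CPM to 90.8 to 98.2 CPM in KO. Its log2 fold changes were 1.03 and 1.02 (edgeR, adjusted p = 3.27e-08 and 5.30e-08). Gna11 rose by 0.50 and 0.51. Gnaq fell in WT by 0.27 (edgeR, adjusted p = 0.039) and was at -0.22 in KO (0.0874). Its values under other settings or without single mouse numbers are not given, so how stable this call is was not examined. Of 14 G beta and gamma genes, 0 rose and 5 fell in WT and 2 rose and 6 fell in KO (37% and 36.8% of all genes passed), with Gng11 down by 1.09 and 1.55 and Gngt2 down by 0.71 and 1.03. Without WT mouse 66, Gng11 in WT was at -1.14 (edgeR, adjusted p = 0.0576).

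RGS proteins and receptor kinases, which damp G protein signals, were counted in 1 list with Ric8a, a chaperone and exchange factor of alpha subunits. Of these 13 genes, 5 were higher and 4 lower in each genotype, beside 37% and 36.8% of all genes called, and Ric8a passed in neither (0.04 in WT and 0.14 in KO). Rgs1, a GTPase activator of activated leukocytes, was at 393 to 461 CPM in WT and 200 to 286 CPM in KO on day 7 and at 36.3 to 48.5 and 32.4 to 54 CPM on day 10. For KO against WT on day 7, Rgs1 was at -0.81 on the log2 scale (edgeR, adjusted p = 0.096), not past the threshold. From day 7 to day 10 it fell by 3.34 in WT and 2.52 in KO. Rgs2, which acts on Gq, fell by 1.24 and 1.222, while Rgs14 rose by 1.43 and 1.13 and Rgs3 by 1.72 and 1.27. The Rgs3 value in KO was 0.68 without the KO libraries numbered 64 (edgeR, adjusted p = 0.145).

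Of 6 other phospholipase C genes tested, 2 were higher in WT and 2 higher and 1 lower in KO from day 7 to day 10 (all genes: 37% and 36.8% called). Plcg2, which works downstream of tyrosine kinases, rose by 0.47 in WT and 0.28 in KO; the KO value was 0.15 without KO libraries numbered 64 (edgeR, adjusted p = 0.396) and 0.22 without those numbered 68 (0.226), and it lost its call without WT mouse 63, 65 or 66 as well (0.28 each). In the supply of PIP2, 1 of 17 rose and 3 fell in WT, and 2 rose and 1 fell in KO, shares below the 37% and 36.8% of all genes. Pip4k2b, a kinase of this lipid pathway, rose by 0.15 and 0.27, and in WT its call was lost without any 1 of mice 63, 65 and 66 (0.17, 0.16 and 0.16) and with the mouse as a fixed block (0.15, edgeR, adjusted p = 0.0518).

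On the IP3 and calcium side, 11 of 31 genes rose and 6 fell in WT, and 9 rose and 5 fell in KO, beside all-gene shares of 37% and 36.8%. Nfatc2, a calcineurin-dependent transcription factor, rose by 1.36 and 1.07 and the kinase Camkk2 by 0.92 and 0.57, while Itpkb, which phosphorylates IP3, fell by 1.07 and 0.80. Rcan1, an inhibitor of calcineurin, fell by 0.51 and 0.68, and in WT was at -0.46 without mouse 63 or 65 (edgeR, adjusted p = 0.0647 and 0.0731).

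On the diacylglycerol side, 7 of 27 rose and 11 fell in WT, and 6 rose and 10 fell in KO, with 37% and 36.8% called over all genes. Chn2, a diacylglycerol-binding Rac GTPase activator, rose by 2.73 and 2.597, and Rasgrp1, a diacylglycerol-responsive Ras activator, by 2.63 and 2.27. The related Rasgrp3 fell by 1.63 in WT and 0.66 in KO. Dagla, which turns diacylglycerol into 2-arachidonoylglycerol, fell by 1.04 and 0.86. Without the KO libraries numbered 64 the KO values were -0.36 for Rasgrp3 and -0.53 for Dagla (edgeR, adjusted p = 0.231 and 0.165), and without those numbered 68 Dagla was at -0.74 (0.0772).

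**Figure D5:**
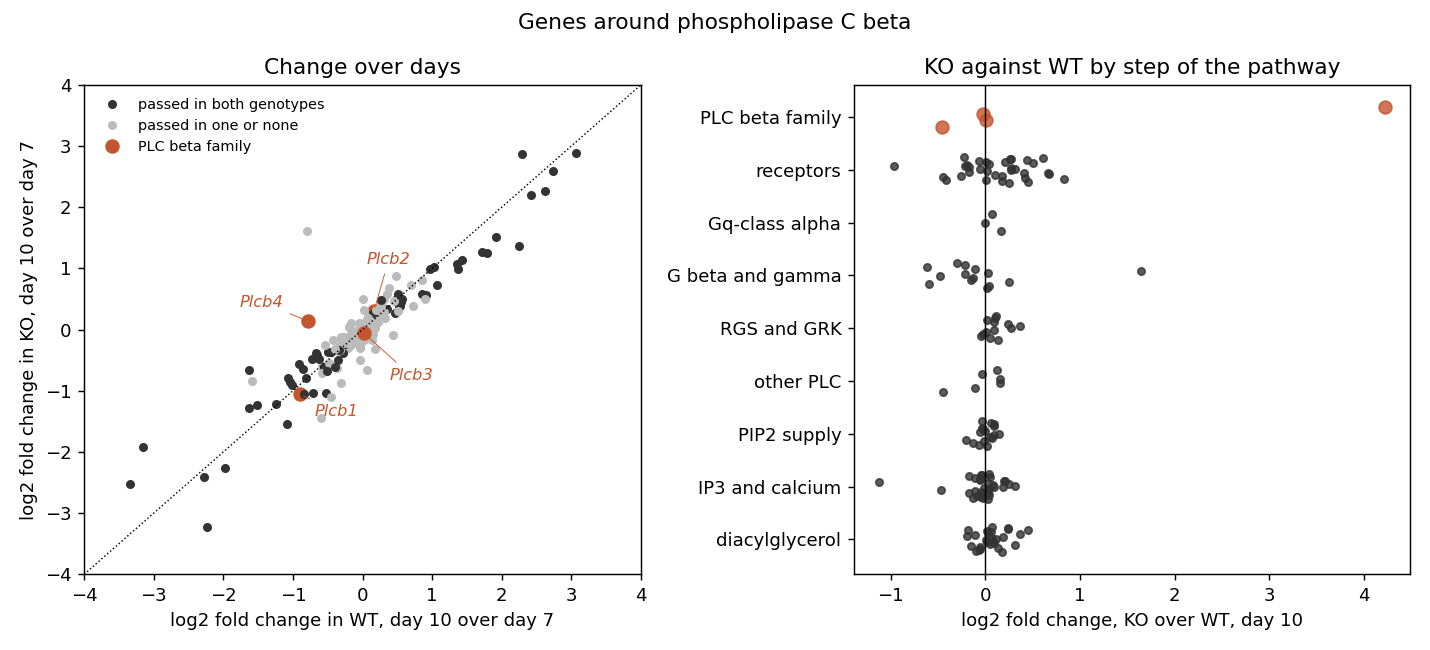
Left: log2 fold change from day 7 to day 10 in WT (horizontal axis) and KO (vertical axis) for the 145 pathway genes and the family, with dark points past the threshold in both genotypes, grey points not, the family in orange and equal change dotted. Right: log2 fold change of KO over WT on day 10 (horizontal axis) by step of the pathway; Plcb4 stands at 4.22, and vertical spread within a step carries no value.

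The genes whose log2 CPM was most like that of Plcb4 over the 24 libraries, among 11108 genes, were Tnrc18 (Pearson r = 0.82), Prdm2 (0.82), Dst (0.81), Nxpe5 (0.79) and Ramp3 (0.79). The Plcb4 values lie in 2 separate clusters by genotype, which these 5 values include. With the mean of each genotype removed, the closest to Plcb4 were Rnf138 (0.69), Daam1 (0.67) and Brd1 (0.61), and for Plcb2 they were Polr2a, Zfp446 and Map4k2 (0.92 each). Plcb1 was closest to Gm5960 and Cox7a2l (0.94 each) and Jak3 (0.93), and Plcb3 to Rras (0.81), Snx32 (0.80) and Acrbp (0.78). The libraries share days, mice and depth, so these are descriptions. Among the members themselves, the same centred correlation was 0.54 for Plcb1 and Plcb3, 0.40 for Plcb1 and Plcb4 and -0.04 for Plcb2 and Plcb4.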

How the data were processed

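Stranded, poly(A)-selected RNA was sequenced in paired reads of 100 bases, per the labels' protocols. The authors deposited raw counts per gene, TPM per gene and a table of symbols. FastQC 0.11.9, STAR 2.6.1, DESeq2 1.22.2 and mm10 are named, with no role, per the submitters' processing notes; the counter, its strand setting and the annotation are not given in the sources used here. Of 55487 identifiers, 55094 matched GENCODE M21 with version.

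Counts were fitted with edgeR 4.0.16 in R 4.3.3 (filterByExpr over 8 groups, TMM, quasi-likelihood, 1 coefficient per group, 24 libraries, 16 residual degrees of freedom, Benjamini-Hochberg over 14535 genes, threshold 0.05). Adjusted p-values come from this fit unless limma 3.58.1 or DESeq2 1.42.0 is named. Standard errors were derived from each F statistic. The procedure was tested on a simulated data set per comparison, with 100 genes changed by 1 on the log2 scale and 100 by 2. For KO against WT on day 10 it recovered 70 and 91 of these, with 9 false calls in all. For day 10 against day 7 in WT it recovered 71 and 86, with 13 false calls in all. Simulated libraries were independent and no other gene changed, unlike the measured libraries, where mouse numbers recur and many genes change over days. Proteins were aligned with MAFFT 7.526.

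The members and gene lists were chosen with earlier results of these data known. Named from the lists were genes called for KO against WT on any day and, per list and direction, the 2 largest changes from day 7 to day 10 called in both genotypes, with average log2 CPM above 1; Gnaq was named after its values were seen.

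Totals ran from 19952047 to 31049798; counting error of Plcb4 was 20.4% to 35.4% per WT library. Reads carry no molecular identifier, so this covers counting error only. Same-numbered libraries deviated together in WT (mean r = 0.291). In KO the mean r was 0.0258, and single values ran from -0.78 to 0.789. The numbers come from the labels. The 24 replicate pairs differed beyond sampling noise (chi-square per degree of freedom 7.26 to 132). P-values measure the spread between mice as labelled.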

Additional observations from a re-analysis of the deposited data

How the results depend on the processing

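The 4 members gave 47 tests, each recomputed under 16 or 17 alternatives, in all 787 values. Those of Plcb4 over days are among them, as a description. Of the 787 values, 737 kept their side of the threshold, with 47 of these changing sign while uncalled. With the direction kept, 45 lost a call and 3 gained one. The remaining 2 changed sign, 1 gaining a call and 1 losing it. Plcb1, Plcb2 and Plcb3 for KO against WT did not pass under any alternative run. On log2(TPM + 1), where the pseudocount and the shift of all genes enter, Plcb4 in KO over WT, given with no test, moved to 1.48, 1.59, 1.59 and 1.88 on days 7 to 10 and the difference of its changes to 0.41; there Plcb4 from day 7 to day 10 was at -0.083 in WT, losing its call, and 0.32 in KO, gaining one. On that scale Plcb3 in KO changed sign, to 0.23 from day 7 to day 10, gaining a call, and to 0.0021, near 0, from day 7 to day 8, losing one, and gained a call in WT (0.29). Plcb2 gained one in WT from day 7 to day 10 (0.44) and lost those from day 7 to day 8 (-0.16 in WT, -0.091 in KO) and day 8 to day 9 (0.40 and 0.50).

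Fitting only the groups compared, with fewer samples, ended the calls of Plcb2 in KO (0.29 from day 7 to 10, -0.30 from 7 to 8, 0.44 from 8 to 9), of Plcb3 in KO from day 7 to 8 (-0.21) and of Plcb4 in WT (-0.78). Plcb4 in WT also lost its call with no filter (-0.77) and DESeq2's Wald test (-0.79), Plcb3 in KO with no filter (-0.21), and Plcb2 in WT from day 8 to 9 with DESeq2 size factors (0.34) and no filter (0.35). The cause was not tested. In the 16 libraries with high Xist, an alternative chosen after seeing the data, Plcb4 in WT (-0.56), Plcb2 in WT from day 8 to 9 (0.34) and in KO from day 7 to 8 (-0.21), and Plcb3 in KO from day 7 to 8 (-0.21) lost their calls.

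Limma voom in place of edgeR, added after seeing the data, moved Plcb4 in WT to -0.75 and Plcb2 in WT from day 8 to 9 to 0.35, both losing the call, as did Itpr2 (0.40), and left 0 pathway genes called on day 7. With the replicate block as a random effect in limma voom these values were the same and 0 pathway genes were called, at a block correlation of 0.00464. That correlation pools WT with KO, where the numbers did not follow 1 animal. These losses were already there with limma voom without a block, and their cause was not tested. The block as a fixed factor in edgeR changed no call of a member and ended that of Pip4k2b in WT (0.15). For KO libraries it is a block by label, which need not be a block by animal. Other named genes lost calls in fits of only the groups compared (in KO: Rgs3 1.25, Plcg2 0.26, Rasgrp3 -0.67, Dagla -0.87), on log2(TPM + 1) (Itpr2 0.42, Rcan1 in WT -0.22, Rasgrp3 in KO -0.21), with no filter (Pip4k2b in WT 0.17) and in the 16 libraries (Plcg2 0.25 and Rasgrp3 -0.51 in KO, Pip4k2b in WT 0.17).

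With 1 mouse number left out, values ran from -0.94 to -0.85 for Plcb1 in WT (day 7 to 10), 0.21 to 0.37 for Plcb2 in KO (7 to 10), -0.47 to -0.31 and -0.37 to -0.23 for Plcb2 from day 7 to 8 in WT and KO, 0.34 to 0.37 and 0.42 to 0.46 from day 8 to 9, -0.29 to -0.16 for Plcb3 in KO from day 7 to 8 and -1.004 to -0.56 for Plcb4 in WT. Calls were lost for Plcb2 from day 7 to 8 without WT number 65 (-0.31) or KO number 64 (-0.23), from day 8 to 9 in both genotypes without any single number other than KO 67, and for Plcb3 in KO without WT 65 or 66 or KO 64 or 67. Pathway genes called on day 7 (1) ran from 0 to 7, on day 10 (0) from 0 to 1, and from day 7 to 10 in KO (72) from 43, without KO number 64, to 88. Other settings gave 6 (no filter), 2 (Xist covariate), 7 (groups compared), 7 (DESeq2) and 5 (16 libraries) on day 7, 1 on day 8 (no filter) and 1 on day 9 (no filter, DESeq2).

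Over all genes, calls for KO against WT ran from 11 to 523 on day 7 (211), 1 to 30 on day 8 (1), 1 to 98 on day 9 (1) and 1 to 82 on day 10 (2). From day 7 to day 10 they ran from 3255 to 6877 in WT (5376) and 3201 to 7499 in KO (5353), and 0 to 39 for the difference of changes (9). From day 8 to 9 they ran from 17 to 2180 in WT (785) and 0 to 898 in KO (338), and from day 9 to 10 from 0 to 1064 (523) and 0 to 2090 (14). Lengths taken from the annotation in place of the authors' TPM left mean levels at 0.612, 161.8, 24.7 and 1.48 TPM for Plcb1 to Plcb4. With 8 to 24 counts per WT library, changes of Plcb4 over days in WT are limited by depth.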
